A study of Mus musculus with 40 samples.

Results

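The genes described here belong to the Notch and Hippo/YAP signalling pathways. The list names the ligand Jag1, the receptors Notch1, Notch2 and Notch3, the Notch target genes Hes1, Hey1 and Heyl, the coactivator Yap1 and the YAP target genes Ccn1 and Ccn2. They were chosen by name, with earlier results of these data known. The shares of all genes printed beside them are therefore a description and not a test. Of the 10 genes, 8 had a row among the 15958 genes of the expression table. Hey1 and Heyl are not analysed here.

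Bulk RNA sequencing was performed on 40 libraries from wild type C57BL/6 male mice. The mice had small bowel resection (SBR), in which part of the small intestine is removed and the ends rejoined, or sham surgery at 8 weeks of age, and from 3 weeks after surgery they received vehicle or 30 mg/kg of WUSTL0717 every day for 7 weeks. WUSTL0717 is a gut-restricted agonist of the liver X receptor (LXR), a nuclear receptor that responds to oxidised cholesterol. The labels give the length removed as 50 to 60% of the small bowel, whereas the study's methods give a larger share. Sham mice received vehicle, and WUSTL0717 without resection was not analysed here. Livers came from 5 sham mice, 8 mice with SBR and vehicle and 5 mice with SBR and WUSTL0717. The duodenum and the ileum each came from 3, 4 and 4 mice of the same 3 groups.

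Notch receptors are activated when a ligand such as Jag1 on a neighbouring cell triggers their cleavage, which frees an intracellular domain that joins the DNA-binding protein RBPJ and switches on genes such as Hes1. In the liver, Jag1 and Notch2 are best known for the formation of bile ducts, and Notch3 for its expression in mural and stellate cells. YAP, encoded by Yap1, is held in the cytoplasm by the Hippo kinases. When released it works with TEAD factors in the nucleus, where Ccn1 and Ccn2 are among its best known targets in regenerating and fibrotic liver.

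The deposited values are log2 TPM, a measure of transcript abundance scaled for gene length and library size, adjusted for batch, with the intestine as batch 1 and the liver as batch 2. After this adjustment 99.8% of 15887 genes had liver and intestine means within 1 log2 unit of each other, so levels were not compared between tissues, nor between genes. The 7 hepatocyte markers summed to 11.24 to 12.34 on the log2 scale in the liver and to 11.26 to 13.72 in the ileum, and the labelled tissue could therefore not be checked by level. Converted back to TPM, the libraries summed to between 618212 and 863110, and no counts were used, so the sequencing depth is unknown. The highest correlation between any pair of libraries was 0.985. Liver libraries were more alike, with a median correlation to the others of the tissue of 0.943 to 0.974, than duodenal libraries, at 0.778 to 0.863.

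Promoter sequences were available from RefSeq (GRCm38.p6) for 6 of the 8 measured genes, Jag1, Notch1, Notch2, Notch3, Ccn1 and Yap1, as windows of 300 bases around the start site. The windows were searched on both strands for CATTCC, the core letters bound by TEAD factors, and for TGGGAA, the core letters bound by RBPJ. The TEAD letters were found in 3 of the 6 windows, and in 14.7% of all 32851 promoters of the table. The RBPJ letters were found in 0 of the 6 and in 25.6% of all promoters, which says only that these letters are not in these windows. The 3 stretches are given here because they hold the TEAD letters. They run 5′ to 3′ along the gene's strand, which is the minus strand for each, end at the base before the RefSeq gene, and have the TEAD letters or their reverse complement GGAATG in capitals.
Notch1, chr2:26503823-26504072: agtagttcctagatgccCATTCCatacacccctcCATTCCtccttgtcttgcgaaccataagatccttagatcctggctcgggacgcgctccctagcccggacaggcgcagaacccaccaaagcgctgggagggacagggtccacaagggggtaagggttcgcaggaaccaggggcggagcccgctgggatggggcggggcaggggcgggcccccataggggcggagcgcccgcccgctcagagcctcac
Yap1, chr9:8004639-8004846: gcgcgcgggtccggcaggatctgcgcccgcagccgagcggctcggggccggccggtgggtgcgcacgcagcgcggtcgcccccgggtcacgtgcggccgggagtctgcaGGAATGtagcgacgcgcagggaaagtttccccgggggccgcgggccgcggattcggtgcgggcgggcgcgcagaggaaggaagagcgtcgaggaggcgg
Ccn1, chr3:145649986-145650235: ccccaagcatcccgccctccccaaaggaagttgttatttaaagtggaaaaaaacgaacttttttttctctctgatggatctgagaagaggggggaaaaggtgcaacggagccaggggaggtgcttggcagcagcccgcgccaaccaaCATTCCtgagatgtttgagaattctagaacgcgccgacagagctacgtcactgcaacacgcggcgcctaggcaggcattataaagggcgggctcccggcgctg
In the Ccn1 stretch the letters begin 103 bases before the start site. Notch1 held them at 233 and at 216 bases before its start site, and Yap1 held the reverse complement at 141 bases before the start site of the promoter table.

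SBR vehicle was compared with sham vehicle in the liver to ask how resection alters hepatic expression. Each of the 8 measured genes rose, by log2 differences from 0.30 for Yap1 to 1.84 for Ccn2. Among the 15901 genes tested in the liver, 41.9% passed an adjusted p of 0.05 in limma and 37.4% passed as higher, and the median of all genes was itself 0.25 higher after SBR. The median of the 8 genes was 0.79. A log2 difference here is taken on the adjusted values and need not equal the log2 ratio of the TPM. The plot of the liver values shows every mouse.

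**Figure D1:**
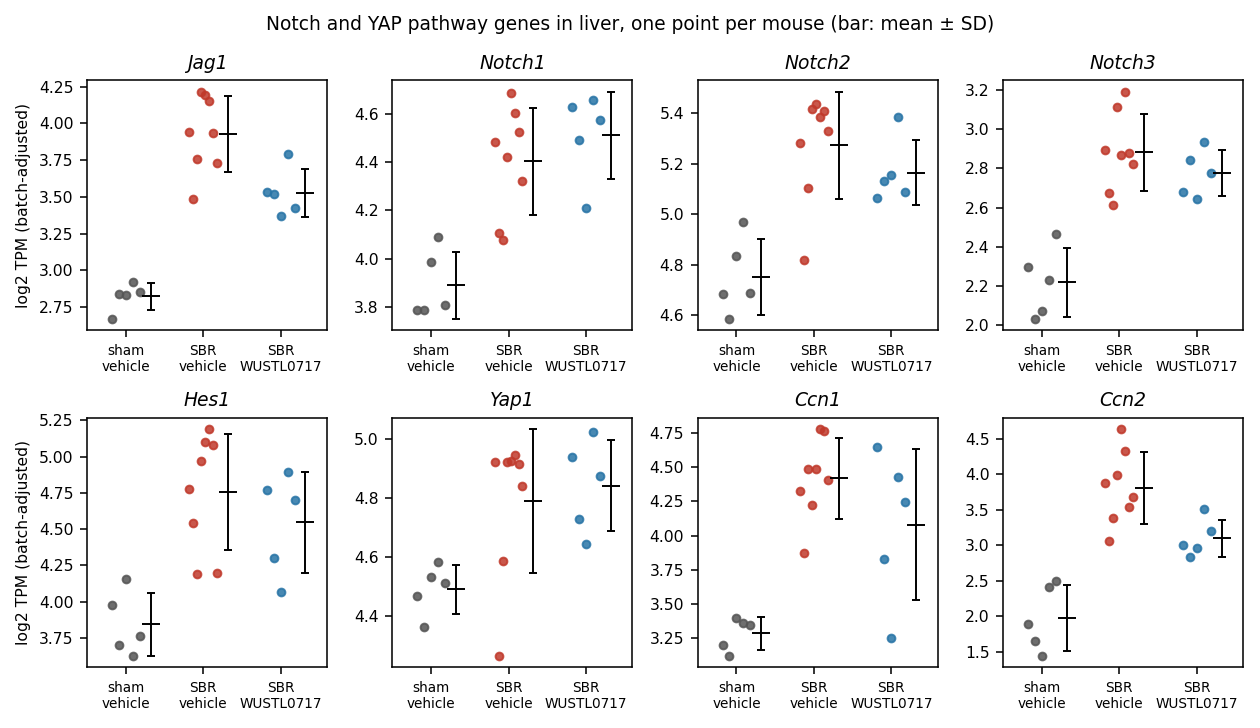
Batch-adjusted log2 TPM of the 8 measured genes in the liver of each mouse, by group, with the mean and SD beside the points. In SBR-vehicle mice Jag1, Notch3, Hes1, Ccn1 and Ccn2 lie above every sham mouse, while Notch1, Notch2 and Yap1 overlap with sham.

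The ligand came first in order of role. Jag1, which presents the Notch signal to neighbouring cells, stood at 2.67, 2.84, 2.83, 2.92 and 2.85 log2 TPM in the 5 sham livers. The 8 SBR-vehicle livers ran from 3.49 through a median of 3.94 to 4.22. All 8 lay above every sham liver, and the log2 difference was 1.11 ± 0.12 (SE), with an adjusted p of 7.19e-07 in limma.

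The receptors moved less. Notch1, a receptor found on many cell types, ranged from 3.78 to 4.09 log2 TPM in sham and from 4.08 to 4.69 in SBR-vehicle livers, a log2 difference of 0.51 ± 0.11 (adjusted p = 0.00115, limma). Notch2, the receptor of the bile duct lineage, ranged from 4.59 to 4.97 and from 4.82 to 5.44, a log2 difference of 0.52 ± 0.10 (adjusted p = 0.000576, limma). In each of these receptors 7 of the 8 SBR-vehicle livers lay above every sham liver and 1 fell within the sham range. Notch3, the receptor of mural cells, ranged from 2.03 to 2.47 and from 2.61 to 3.19 without overlap, a log2 difference of 0.66 ± 0.11 (adjusted p = 6.91e-05, limma).

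Hes1 encodes a transcriptional repressor that is a direct readout of Notch activation in many tissues. Its level was 3.97, 3.70, 4.15, 3.63 and 3.76 log2 TPM in the sham livers and ran from 4.19 through a median of 4.87 to 5.19 in the SBR-vehicle livers. The groups were separate, but by a small margin, since SBR-vehicle mice 3 and 8, at 4.19 and 4.20, stood just over the highest sham liver. The log2 difference was 0.91 ± 0.18 (adjusted p = 0.000616, limma).

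Yap1 had the smallest difference. It stood at 4.47, 4.36, 4.53, 4.58 and 4.51 log2 TPM in sham livers, and at 4.26 to 4.94 with a median of 4.92 in SBR-vehicle livers. Of the SBR-vehicle livers 7 lay above every sham liver, whereas mouse 2 lay below them all. The log2 difference was 0.30 ± 0.11 (adjusted p = 0.0352, limma), little more than the shift of the median gene. When each library was centred on its own median the difference of Yap1 was -0.01 (adjusted p = 0.911, limma), and when the 18 liver libraries were left out in turn it did not pass in 10 cases, with adjusted p of up to 0.0925. Without SBR-vehicle mouse 2 it was 0.37 (adjusted p = 0.000725, limma).

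Both YAP targets rose more than Yap1. Ccn1 (Cyr61), a secreted matrix protein that binds integrins, stood at 3.20, 3.12, 3.40, 3.36 and 3.35 log2 TPM in sham and at 3.87 to 4.78 with a median of 4.45 in SBR-vehicle livers. Its log2 difference was 1.13 ± 0.19 (adjusted p = 9.52e-05, limma). Ccn2 (connective tissue growth factor), a matrix protein of fibrotic tissue, had the widest spread, with 1.89, 1.64, 1.44, 2.41 and 2.50 in sham and 3.05 to 4.64 with a median of 3.78 in SBR-vehicle livers. Neither gene overlapped between the groups. The log2 difference of Ccn2 was 1.84 ± 0.23 (adjusted p = 5.39e-06, limma).

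Over the 8 genes, 5 had SBR-vehicle livers that were all above sham, against 15.6% of all genes tested. With each library centred on its median, 7 of the 8 still passed as higher in limma, where 3245 of the 7825 genes called were higher against 5953 of 6663 without centring, and the differences then ranged from 0.21 for Notch1 to 1.53 for Ccn2 among those 7.

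The other genes of the pathways were described from 5 lists. Of all 15901 genes tested, 37.4% rose and 4.47% fell, and after median centring 3245 rose and 4580 fell. Of 4 further Notch ligands and receptors 3 rose in SBR-vehicle livers, Jag2 by 0.76 (adjusted p = 1.14e-05), Dll1 by 0.43 (adjusted p = 0.00592) and the endothelial receptor Notch4 by 0.41 (adjusted p = 0.0039), whereas 1 rose after median centring. Of 20 genes that modify or cleave the receptors or act in the RBPJ complex, 10 rose and 1 fell. Their median difference was 0.28, close to that of all genes. None fell without sham mouse 1, 3, 4 or 5 or SBR-vehicle mouse 1, 3 or 8. After median centring 4 rose and 6 fell, near the shares of all genes. The largest difference among these 20 genes was in Maml2, a coactivator of the complex, at 0.78. It was followed by Lfng, which glycosylates the receptors, and by Rbpj itself at 0.47. Of 5 other Notch target genes 4 rose, with a median of 1.82, namely the cyclin Ccnd1 (2.64), Myc (2.52), the ductal transcription factor Sox9 (1.82) and Dtx1 (0.88). Ccnd1 and Myc have many other inducers.

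Of 18 Hippo kinases, scaffolds and YAP partners, 13 rose and 0 fell, with a median of 0.35. Among all 15901 genes tested 37.4% rose and 4.47% fell, with a median of 0.25. After median centring 8 of the 18 rose and 3 fell, where 3245 of all genes rose and 4580 fell. Without sham mouse 2 only 8 rose, where 4593 of all genes rose against 5953 with every library. Ajuba, which restrains the Hippo kinases, differed by 1.64 (adjusted p = 3.74e-06, limma), the scaffold Frmd6 by 1.30 (adjusted p = 5.78e-07, limma) and Tead1, the DNA-binding partner of YAP, by 1.12 (adjusted p = 7.28e-06, limma). Wwtr1, which encodes TAZ, the close relative of YAP, rose by 0.87 (adjusted p = 1.58e-05, limma). Of 16 further YAP targets 12 rose and 0 fell, with a median of 0.75, beside the same 37.4% and 4.47% of all genes. After median centring 10 of these targets rose and 2 fell. The largest were Ccdc80 at 1.81, Myof at 1.64, Arhgef17 at 1.37 and Ptpn14 at 1.33, followed by the receptor kinase Axl at 1.08.

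Markers of the cell types in which these genes are known to be expressed moved as well. Beside them, 37.4% of all 15901 genes tested rose and 4.47% fell, and after median centring 3245 rose and 4580 fell. All 7 cholangiocyte markers rose in SBR-vehicle livers, with Spp1 at 3.31 and Epcam at 2.68, and their summed level was 8.66 to 9.65 on the log2 scale against 6.37 to 7.54 in sham. Of 8 stellate cell and myofibroblast markers 7 rose, with Col1a1 at 3.36, and the summed level was 8.42 to 9.20 against 6.76 to 7.42. Of 7 hepatocyte markers 3 fell, with a summed level of 11.24 to 12.18 against 12.00 to 12.34, and all 7 fell after median centring. Among 7 endothelial, 5 vascular smooth muscle and 6 Kupffer cell markers, 1, 2 and 0 rose and 0, 0 and 1 fell, and 4 of 8 intestinal epithelial and 1 of 4 lymphocyte markers rose. Without SBR-vehicle mouse 2, 3 endothelial, 2 Kupffer cell and 2 lymphocyte markers rose. In that fit 8314 of all genes rose, against 5953 with every library. Without SBR-vehicle mouse 3, where 6530 of all genes rose, the endothelial and Kupffer cell counts were 2 and 1. When single libraries were left out the lymphocyte count ranged from 0 to 2, and without SBR-vehicle mouse 6 the Kupffer cell markers that fell were 2. The hepatocyte count was 2 without sham mouse 1, 4 or 5. None of these markers was at 0 in every library of a group. The part of these shifts in the rise of the Notch and YAP genes was not tested. In bulk tissue, more cells of a type and more RNA per cell cannot be told apart.

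**Figure D2:**
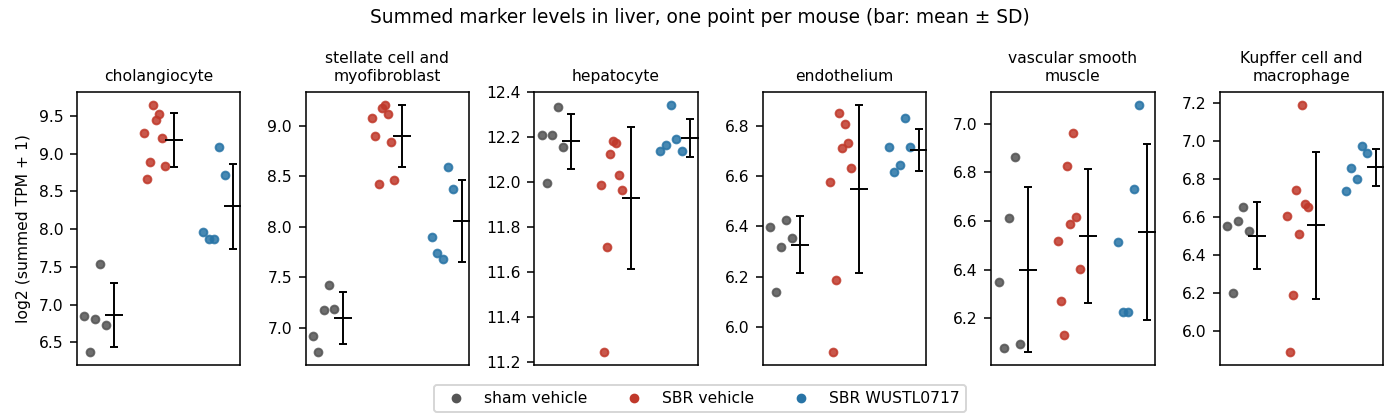
Summed level of 6 marker lists in the liver of each mouse, as log2 of the summed TPM plus 1, with the mean and SD beside the points. Cholangiocyte and stellate cell sums in SBR-vehicle mice lie above all sham mice, and in these lists all 5 WUSTL0717 mice lie between the means of the other groups.

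SBR WUSTL0717 was compared with SBR vehicle to ask whether the agonist altered the response to resection. None of the 8 genes passed in the liver by limma, where 4.1% of all genes did, 1.44% as higher and 2.66% as lower. At an unadjusted p below 0.05 there were 2, Jag1 and Ccn2, against 17.2% of all genes, and the unmoderated two-sample test called 0 genes of the whole table. Of the 8 genes 6 had a lower mean with WUSTL0717, with a median of -0.16 beside a median of 0.02 over all genes.

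Jag1 in the WUSTL0717 livers stood at 3.53, 3.52, 3.37, 3.79 and 3.42 log2 TPM. These were all above the sham range, and 2 of 5 were below the lowest SBR-vehicle liver. The log2 difference from SBR vehicle was -0.40 ± 0.12 (adjusted p = 0.0621, limma), with a 95% interval of -0.65 to -0.16. Ccn2 stood at 3.00, 2.84, 2.97, 3.51 and 3.20, and 3 of 5 lay below the lowest SBR-vehicle liver. Its log2 difference was -0.71 ± 0.23 (adjusted p = 0.102, limma), with an interval of -1.20 to -0.22. The calls of both genes varied with the processing. Jag1 passed with each library centred on its median (-0.40, adjusted p = 0.000706), with library weights (-0.49, adjusted p = 0.000698), without SBR-vehicle mouse 2 (-0.46, adjusted p = 0.0135) and without WUSTL0717 mouse 4 (-0.47, adjusted p = 0.026). Ccn2 passed with median centring (adjusted p = 0.0134), with library weights (adjusted p = 0.00838), with the replicate number as a block (-0.69, adjusted p = 0.0401) and without SBR-vehicle mouse 2 (-0.82, adjusted p = 0.0367).

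The other 6 genes were closer to the SBR-vehicle level. Ccn1 stood at 4.64, 3.83, 3.25, 4.43 and 4.25 log2 TPM with WUSTL0717, where mouse 3 alone fell inside the sham range. Its log2 difference from SBR vehicle was -0.34 ± 0.19 (adjusted p = 0.384, limma). Hes1 stood at 4.77, 4.30, 4.07, 4.89 and 4.70, with mouse 3 again the lowest and inside the sham range. Its difference was -0.21 (interval -0.60 to 0.18). The intervals of the receptors and of Yap1 were narrower, at -0.33 to 0.11 for Notch2, -0.33 to 0.12 for Notch3, -0.13 to 0.34 for Notch1 and -0.18 to 0.28 for Yap1. Notch2 passed only with library weights (-0.25, adjusted p = 0.0107, limma).

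SBR WUSTL0717 livers were also compared with sham vehicle, the same WUSTL0717 libraries being used in both comparisons. All 8 genes were higher than in sham, where 27.9% of all genes tested passed as higher and the median of all genes was 0.27. The differences were 1.13 ± 0.26 for Ccn2 (adjusted p = 0.00482, limma), 0.79 ± 0.21 for Ccn1 (adjusted p = 0.0102) and 0.70 ± 0.13 for Jag1 (adjusted p = 0.00102). Hes1 differed by 0.70 (adjusted p = 0.0172), Notch1 by 0.62 (adjusted p = 0.00174), Notch3 by 0.55 (adjusted p = 0.00286), Notch2 by 0.41 (adjusted p = 0.0142) and Yap1 by 0.35 (adjusted p = 0.0387). All 5 WUSTL0717 livers lay above every sham liver for 6 of the genes, against 27.4% of all genes, and 4 of 5 did for Hes1 and Ccn1. After median centring 3 genes passed, Jag1 (0.40), Notch1 (0.32) and Ccn2 (0.83), where 1700 of all genes passed as higher against 4436 without centring. Without WUSTL0717 mouse 4, where 2361 did, 5 of the 8 passed, and Notch2, Hes1 and Yap1 did not. Yap1 also did not pass without sham mouse 1, 2, 3 or 5 or WUSTL0717 mouse 1 or 5, with adjusted p of up to 0.11 over the 7 fits.

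Among the other pathway genes in the liver, 1 of 4 ligands and receptors fell with WUSTL0717, Jag2 by 0.49 on the log2 scale (adjusted p = 0.0151). Of 5 Notch targets 2 fell, Sox9 with a difference of -0.95 (adjusted p = 0.0092) and Dtx1 with -0.58 (adjusted p = 0.0214). Of 16 YAP targets 4 fell and 0 rose, Ccdc80 with -0.70, Myof with -0.66, Ptpn14 with -0.65 and Arhgef17 with -0.60, and the list median was -0.25. No gene of the 18 Hippo and 20 processing genes passed, while 4 in each list had an unadjusted p below 0.05, against 17.2% of all genes. After median centring 5 Hippo and 4 processing genes fell and 1 of each rose, and with library weights 6 and 5 fell. The count of YAP targets that fell was 0 without WUSTL0717 mouse 1, 2 or 3, 2 without SBR-vehicle mouse 1 or 6 or WUSTL0717 mouse 5, and 6 without SBR-vehicle mouse 2 or WUSTL0717 mouse 4. It was 9 after median centring and 10 with library weights. The number of all genes called as lower moved too, from 423 to 1303 with centring and 2196 with weights, to between 53 and 110 without WUSTL0717 mouse 1, 2 or 3, and to 684 and 830 without SBR-vehicle mouse 2 and WUSTL0717 mouse 4. Jag2 no longer passed without WUSTL0717 mouse 2 or 3. Without WUSTL0717 mouse 1, 2 or 3, 1 of the Notch targets fell, against 3 without SBR-vehicle mouse 2 or WUSTL0717 mouse 4.

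The marker lists moved beside these values, where 1.44% of all genes passed as higher and 2.66% as lower. Of 7 cholangiocyte markers 5 fell with WUSTL0717, and the summed level was 7.87 to 9.08 against 8.66 to 9.65 in SBR vehicle. Of 8 stellate cell and myofibroblast markers 4 fell, with sums of 7.68 to 8.59 against 8.42 to 9.20. No hepatocyte, endothelial or smooth muscle marker passed. After median centring 4 hepatocyte markers rose, where 1830 of all genes rose against 229 without centring. Of 6 Kupffer cell markers 1, Clec4f, rose, while 2 of 8 intestinal epithelial markers fell. These counts rested on few mice. Without WUSTL0717 mouse 1, 2 or 3, 1 cholangiocyte, 2 stellate cell and 0 intestinal epithelial markers fell. In those fits 110, 69 and 53 of all genes fell, against 423 with every library. Without WUSTL0717 mouse 5, where 275 of all genes fell, 2 stellate cell markers did. When single libraries were left out the intestinal epithelial count ranged from 0 to 2, the Kupffer cell markers that rose from 0 to 3 and the hepatocyte markers that rose from 0 to 1. Their part in the values of Jag1, Ccn2, Sox9 and the YAP targets was not tested.

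In the duodenum none of the 8 genes passed after SBR. There limma called 0 of 15093 genes, that is 0%, with 2426 (16.1%) at an unadjusted p below 0.05, among them 3 members, Hes1, Notch2 and Notch1. Of the 8 genes 7 had a lower mean in SBR-vehicle than in sham mice, with a median of -0.96 beside -0.36 over all genes. Hes1 stood at 3.77, 4.65 and 5.03 log2 TPM in sham and at 4.06, 2.54, 2.58 and 2.07 in SBR vehicle, a log2 difference of -1.67 ± 0.58 (adjusted p = 0.274, limma). Notch1 stood at 3.50, 3.74 and 5.03 against 3.83, 2.37, 2.84 and 2.40 (difference -1.23, adjusted p = 0.291, limma). For Jag1, Notch1, Notch2 and Hes1, SBR-vehicle mouse 1 lay within the sham range and the other 3 mice below it. The differences of Jag1 and Notch2 were -1.13 (interval -2.31 to 0.05) and -1.10 (interval -2.05 to -0.15). Notch3 was the only member with a higher mean, at 0.54 (interval -0.62 to 1.71). With library weights limma called 2497 genes in this tissue, and 4 of the members, Jag1, Notch1, Notch2 and Hes1, passed as lower with adjusted p of 0.0253 to 0.0469. Without SBR-vehicle mouse 1, 589 genes passed, and Notch2 was at the threshold (-1.46, adjusted p = 0.05).

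In the ileum 55 of 15772 genes passed after SBR, 0.349% of those tested, and none of the 8 members did. The count over all genes was 3 without sham mouse 2, 113 without WUSTL0717 mouse 2 and 279 with library weights, and no member passed in these fits. With every library and no weights 1 member, Notch3, had an unadjusted p below 0.05, against 8.46% of all genes. It stood at 1.57, 1.78 and 2.36 log2 TPM in sham and at 3.14, 2.73, 2.50 and 2.40 in SBR vehicle. This was the only member whose groups did not overlap here, as was so for 6.73% of genes in that direction, and its difference was 0.79 ± 0.29 (adjusted p = 0.396, limma). Ccn1 differed by 0.96, Yap1 by 0.41, Jag1 by 0.34, Notch2 and Notch1 by 0.27, Ccn2 by 0.23 and Hes1 by -0.11, each with an interval that includes 0. The ileal intervals of Notch1, Notch2, Notch3, Ccn1 and Yap1 include the difference seen in the liver, and those of Jag1, Hes1 and Ccn2 do not. This leaves out the error of the liver difference and is not a test. The contrast of liver and ileum, given below, passed for no member.

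**Figure D3:**
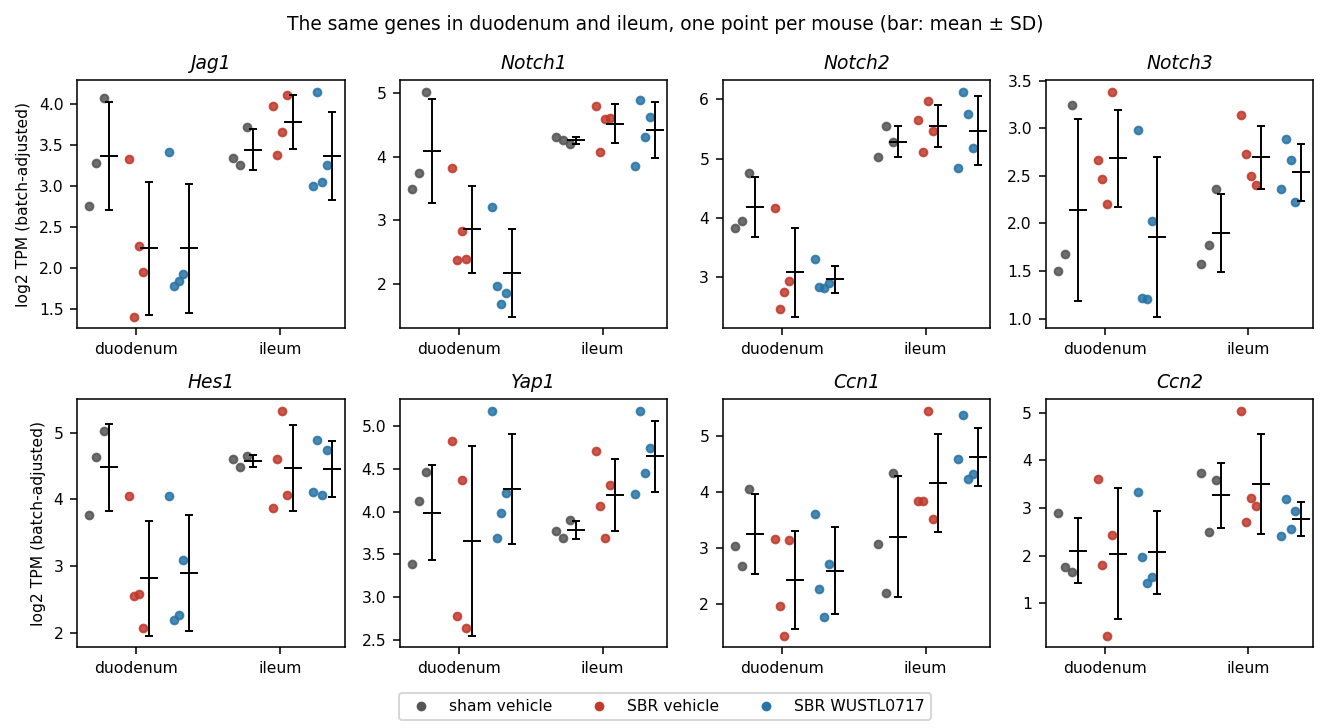
Batch-adjusted log2 TPM of the 8 measured genes in the duodenum and ileum of each mouse, by group, with the mean and SD beside the points. Duodenal SBR-vehicle mouse 1 and WUSTL0717 mouse 1 lie above the rest of their groups for Jag1, Notch1, Notch2 and Hes1.

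No member passed with WUSTL0717 in either gut segment. In the duodenum 0.258% of genes passed against SBR vehicle, and the members ranged from -0.82 for Notch3 to 0.61 for Yap1, each with an adjusted p of 1 in limma. In the ileum 0.0697% passed, and the members ranged from -0.73 for Ccn2 to 0.47 for Ccn1, with adjusted p of 0.862 to 0.999. The unmoderated test called 0 members in both. No member had an unadjusted p below 0.05 in either segment, where 5.31% and 6.87% of all genes did, and the intervals, such as -1.37 to 1.42 for Ccn2 in the duodenum, leave room for differences as large as those in the liver.

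**Figure D4:**
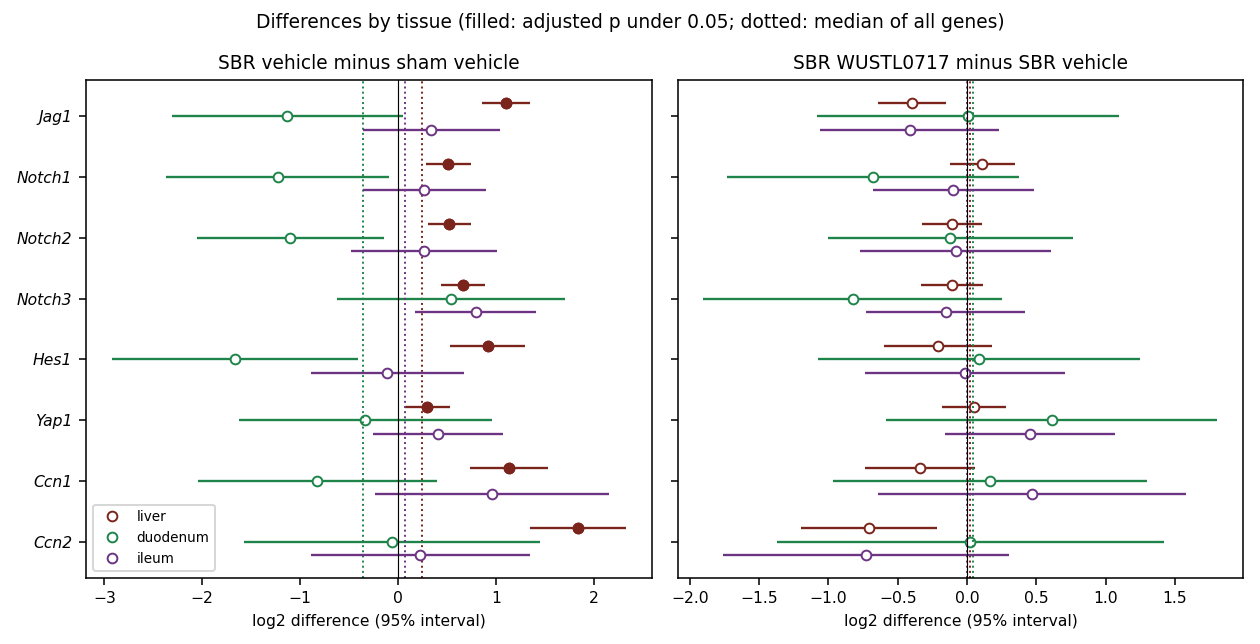
Log2 differences of the 8 measured genes with their 95% intervals in liver, duodenum and ileum, for SBR vehicle minus sham vehicle on the left and SBR WUSTL0717 minus SBR vehicle on the right. All 8 liver differences after SBR pass the test, from 0.30 to 1.84, and the intervals in both gut segments are wider than in the liver.

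Whether the response to SBR differed between the liver and the gut was tested in limma over all 40 libraries. The labels do not say whether the tissues came from the same mice, and the fit took the libraries as independent. The fit also shared its estimate of a gene's spread over all tissues, although the spread differed between them. For Jag1 the SE of the SBR difference was 0.12 in the liver, 0.54 in the duodenum and 0.32 in the ileum. In both contrasts it was 0.44, less than in the duodenum alone. The p-values of these contrasts can therefore be too small against the duodenum and too large against the ileum. The difference in liver minus that in duodenum was higher for 6 of the 8 members, where 26.7% of all genes passed as higher and the median of all genes was 0.63. It was 2.58 ± 0.50 for Hes1 (adjusted p = 0.000282), 2.24 ± 0.44 for Jag1 (adjusted p = 0.000296), 1.96 for Ccn1 (adjusted p = 0.0111), 1.90 for Ccn2 (adjusted p = 0.0284), 1.74 for Notch1 (adjusted p = 0.00194) and 1.62 for Notch2 (adjusted p = 0.00159). For Yap1 it was 0.63 (interval -0.29 to 1.56) and for Notch3 0.12 (interval -0.73 to 0.96). With library weights Yap1 passed as well (1.34, adjusted p = 0.00181, limma), for 7 of the 8, but there 7390 of all genes passed as higher against 4263 without weights, and the median of all genes was 0.96. After median centring, Ccn1 (adjusted p = 0.0976, limma) and Ccn2 (adjusted p = 0.173, limma) no longer passed. Over the alternatives the difference ranged from 1.25 to 1.96 for Ccn1 and from 1.12 to 1.90 for Ccn2. The batch adjustment rescaled each gene in the liver and in the intestine separately, so the effects of tissue and of batch in these contrasts cannot be told apart.

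Against the ileum 0 of the 8 passed, where 5.62% of all genes did, and 2 had an unadjusted p below 0.05, against 16.3% of all genes, Ccn2 with a difference of 1.61 ± 0.66 (adjusted p = 0.173, limma) and Hes1 with 1.02 ± 0.50 (adjusted p = 0.298, limma). The intervals of the other 6 include 0. For the WUSTL0717 effect 0 of the 8 passed for liver minus either segment, where 0.953% and 0.232% of all genes did. At an unadjusted p below 0.05 there was 1 against the duodenum, Notch1 (0.79, adjusted p = 0.587, limma), and 0 against the ileum, where 8.5% and 6.74% of all genes were.

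The genes most like each member were found over the 18 liver libraries after the group means were subtracted, by Pearson's r, as a description. Jag1 was most like Gabpb2 (0.952), Setd5 and Dgcr8, and Notch1 most like Arid1b (0.97), Zfp652 and Sppl3. Notch2 was most like Snx4 (0.98), Pi4kb and Btf3, and Yap1 most like Mark3 (0.975), Arhgap5 and Nup153. Notch3 had lower values, with Abcg1 (0.878), Fam129b and Rab31, and Hes1 was most like Gm4673 (0.914), Id3 and Gm37472. Ccn1 was most like Naa30 (0.914), Ccdc71l and Trim39, and Ccn2 most like Mamld1 (0.919), Dpep1 and Susd6. The members also followed the median of their library, with r from 0.547 for Ccn1 to 0.931 for Notch2, so that these likenesses share the library-wide level.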

How the data were processed

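Per the labels and the study's methods, ribosomal RNA was removed from total RNA, reads were aligned to GRCm38 with STAR and counted with featureCounts, and the authors calculated TMM size factors and TPM, took log2 and adjusted for batch with ComBat. The deposited log2 TPM values hold no counts, so a count test was not possible. The constant added before the log is not given in the sources used here. For library sums, marker sums and the alternative with 5 added, values were converted back to TPM with this constant taken as 1. The 2752 values below 0 became 0 TPM there. Marker sums add adjusted levels over genes and are a description. Differences were tested with limma 3.58.1 (R 4.3.3, trended prior) on the 3 groups of a tissue, over genes averaging 1 log2 TPM or more in that tissue, with Benjamini-Hochberg adjustment over all of them and a threshold of 0.05, and between tissues over all 40 libraries. Replicates are samples that the labels number separately, taken here as mice, and p-values measure the spread between them. The scripts were tested on simulated data. Named genes were all members, at most 5 genes a list called with the smallest p, and for each member the 3 most alike genes. Members and lists were chosen with earlier results of these data known. Alternatives were no filter, TPM with 5 added, median centring of libraries, an unmoderated two-sample test, library weights, replicate number as a block and, within a tissue, leaving out each library.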

Additional observations from a re-analysis of the deposited data

Results flagged for a closer look

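Of 56 sets of 4 to 8 mice, 3 had a mouse that stood apart from the rest of its group by Dixon's criterion, which chance alone exceeds in about 1 set in 20. Jag1 was 3.42 log2 TPM in duodenal WUSTL0717 mouse 1. Notch2 was 5.39 in liver WUSTL0717 mouse 4. Ccn1 was 5.45 in ileal SBR-vehicle mouse 3.

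The response to SBR was higher in the liver than in the duodenum for 6 members by the test of the difference in limma, by 2.58 for Hes1, 2.24 for Jag1, 1.96 for Ccn1, 1.90 for Ccn2, 1.74 for Notch1 and 1.62 for Notch2, where 26.7% of all genes passed as higher and the median of all genes was 0.63. With median centring 4 members passed, since Ccn1 (adjusted p = 0.0976) and Ccn2 (adjusted p = 0.173) did not. The test of the difference shared its estimate of a gene's spread over all tissues, so its p-values can be too small here. Without SBR-vehicle mouse 1 the duodenal log2 differences were -2.08 for Hes1, -1.55 for Notch1, -1.49 for Jag1 and -1.46 for Notch2, and the adjusted p of Notch2 was at the threshold in limma (0.05).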

How the results depend on the processing

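In the liver after SBR, 7 of the 8 members passed with median centring, with the two-sample test and with the replicate block, and 8 with each other alternative that kept every library. The value of Yap1 turned to -0.0069 with median centring. The count of members that passed with WUSTL0717 against SBR vehicle in the liver was 2 with median centring, 3 with library weights and 1 with the replicate block, and 0 to 2 when libraries were left out, and Yap1 turned to -0.031 with library weights and ranged from -0.023 to 0.10 without single libraries. Against sham it was 3 with median centring and 5 to 8 without single libraries. In the duodenum after SBR it was 4 with library weights and 0 to 1 without single libraries, where 2497 genes passed with weights, 96 with median centring, 1 with the two-sample test and 0 as reported. Over all genes, WUSTL0717 against SBR vehicle in the liver gave 652 calls (229 higher), 3133 with median centring (1830 higher), 2819 with library weights (623 higher), 0 with the two-sample test and 93 to 1075 without single libraries. Against sham the calls numbered 4580 (4436 higher), 3120 with median centring (1700 higher), 8387 with library weights (7998 higher) and 2456 to 6727 without single libraries. For the SBR effect in liver minus duodenum they numbered 4670 (4263 higher), 3287 with median centring (1365 higher) and 7648 with library weights (7390 higher), where 7 members passed. In the liver after SBR 6663 genes passed, and 10462 with library weights. In the ileum after SBR there were 55, with 279 under library weights, 5 by the two-sample test, 12 with the replicate block and 3 to 113 without single libraries. With WUSTL0717 there were 39 in the duodenum and 11 in the ileum, 85 and 18 with library weights, 2 and 1 by the two-sample test, 8 and 1 with the block, and 7 to 38 and 2 to 12 without single libraries. For the SBR effect in liver minus ileum 897 became 2067 with library weights, and for the WUSTL0717 effect 152 became 309 against the duodenum and 37 became 329 against the ileum, with 267 and 90 under median centring and 61 against the ileum with 5 added to TPM. The cause of these changes was not tested.

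Turns of sign among members not called in the reported fit were as follows. In the duodenum after SBR, Ccn2 was 0.059 with 5 added to TPM, 0.34 with median centring and 0.033 with library weights, and Yap1 was 0.069 with median centring. Without single libraries Ccn2 ranged from -0.58 to 0.52 and Yap1 from -0.73 to 0.0019. With WUSTL0717 in the duodenum, Ccn2 was -0.057 with 5 added, -0.017 with median centring and -0.19 with library weights, Jag1 was -0.035 with median centring, and Notch2 and Ccn1 were 0.045 and -0.18 with library weights. Without single libraries the ranges were -0.55 to 0.55 for Ccn2, -0.39 to 0.37 for Jag1, -0.32 to 0.24 for Notch2, -0.30 to 0.50 for Hes1 and -0.17 to 0.44 for Ccn1. In the ileum after SBR they were -0.29 to 0.50 for Ccn2 and -0.40 to 0.088 for Hes1, and with WUSTL0717 -0.21 to 0.27 for Hes1, -0.30 to 0.13 for Notch2 and -0.26 to 0.087 for Notch1, with Hes1 at 0.039 under library weights. For the SBR effect in liver minus duodenum, Notch3 was -0.59 with median centring and -0.38 with library weights, and Yap1 -0.075 with median centring but 1.34 with library weights, which passed. For liver minus ileum, Ccn1 was -0.057 with median centring. For the WUSTL0717 effect, Notch2 was -0.28 with library weights against the duodenum and Jag1 -0.0082 with 5 added against the ileum.

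Same-numbered mice of different groups had correlations of their deviations between -0.32 and 0.329, so the numbers were not taken to pair them. With the replicate block 5587 genes passed in the liver after SBR against 6663 without it, and Yap1 was 0.23 (adjusted p = 0.0792). The block left 0 members called in each comparison of the duodenum and ileum. With 3 or 4 mice a group, the gut intervals limit what can be seen there, and the unknown depth and the adjustment by tissue limit any reading of levels.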

Other observations

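Within the liver groups the members were not equally alike. Over the 18 libraries with group means subtracted, Pearson's r was highest for Yap1 with Notch2 (0.855) and with Notch1 (0.836), and lowest for Ccn1 with Notch3 (0.299) and with Ccn2 (0.354), although Ccn1 and Ccn2 are both YAP targets. All of these values share the level of the library, as described for the genes most like each member, and are given as a description. In the liver the group means of Ccn2 were 1.97, 3.81 and 3.10 log2 TPM in sham vehicle, SBR vehicle and SBR WUSTL0717, and those of Jag1 were 2.82, 3.93 and 3.53, while those of Notch1 were 3.89, 4.40 and 4.51.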
